A study of Mus musculus with 12 samples.

Results

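The signalling lymphocyte activation molecule (SLAM) family is a group of immunoglobulin-like receptors on the surface of blood-derived and myeloid cells. The genes examined were Cd84, Slamf9, Ly9, Slamf8 and Cd244, taken by symbol from the 756 genes of an nCounter Mouse Neuroinflammation panel. All 5 symbols were present, with 1 row each. Their means over the 12 mice were 244 normalized counts for Cd84, 119 for Slamf9, 81.2 for Ly9, 22.9 for Slamf8 and 15.2 for Cd244. Cd244 was thus the member under a mean of 20, the minimum set for testing, and 695 of the 756 genes, 4 SLAM receptors among them, were tested. Slamf8 passed that minimum because of the vehicle-treated 5xFAD mice, since its means in the other groups were under 20. Levels are not compared between genes, because each gene was read with its own probe.

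In nCounter assays, colour-coded probes hybridised to transcripts are counted without amplification, and here the RNA came from mouse hippocampus. The 3 groups of 4 mice were non-transgenic littermates on vehicle, 5xFAD mice on vehicle, and 5xFAD mice on TPPU, an inhibitor of soluble epoxide hydrolase. As background, 5xFAD mice carry transgenes driven in neurons by the Thy1 promoter, and they develop amyloid plaques early. TPPU was given in the drinking water at 3 mg/kg, starting at 2 months of age and lasting 2.5 months, and the vehicle held 1% polyethylene glycol. All groups thus received the polyethylene glycol, and no group joined TPPU with the non-transgenic genotype. The labels describe the mice as male, but the Y-linked genes Uty and Kdm5d were low in 6 of them, 2 per group, with 15.2 to 33.5 and 14.2 to 22.8 normalized counts. Total probe counts were 1050334 to 1314362 per mouse, and the scaling factors read from the deposited values lay between 0.871 and 0.993 for the non-transgenic group, 0.946 and 1.10 for 5xFAD on vehicle, and 1.03 and 1.09 for TPPU. Mouse 4 of the non-transgenic and mouse 1 of the vehicle-treated 5xFAD group had high counts of the choroid plexus transcript Ttr, at 16461 and 4270, against 77.1 to 284 in the other mice. Of the markers listed for hippocampal neurons, only Bdnf, which is not specific to that region, was analysed here.

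As background, most SLAM receptors bind the same receptor on a neighbouring cell, while Cd244 binds Cd48. Cd84, Ly9 and Cd244 carry tyrosine motifs in their tails that recruit the adaptor Sh2d1a (SAP), which brings in the Src-family kinase Fyn, and these motifs can also bind the phosphatases Ptpn6 (SHP-1) and Inpp5d (SHIP-1). Slamf8 and Slamf9 have short tails without these motifs. In the brain, the cells that chiefly carry receptors of this kind are microglia, other macrophages and the few lymphocytes present.

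The SLAM genes lie together on mouse chromosome 1. In RefSeq (GRCm38.p6) the order was Cd244a (the current symbol of Cd244), Ly9, Slamf7, Cd48, Slamf1, Cd84 and Slamf6, followed after 14 other protein-coding genes by Slamf9 and after 4 more by Slamf8. Slamf1, Slamf6, Slamf7 and Cd48 were not analysed here. RefSeq promoter windows, from 250 bases before to 50 bases after the annotated start, were matched for 4 members, and Ly9 had no entry. They are shown because they hold the start sites of receptors that rose in 5xFAD mice and, for contrast, of Slamf8 and Cd244. Capitals mark the letters GAGGAA, the core that the myeloid factor PU.1 is known to bind, or TTCCTC, the same letters on the other strand. The Cd84 window is chr1:171839447-171839746 on the plus strand, and that of Slamf9 is chr1:172475110-172475409 on the plus strand. The Slamf8 window is chr1:172590519-172590818 on the minus strand, and that of Cd244 is chr1:171558943-171559242 on the plus strand.
Cd84: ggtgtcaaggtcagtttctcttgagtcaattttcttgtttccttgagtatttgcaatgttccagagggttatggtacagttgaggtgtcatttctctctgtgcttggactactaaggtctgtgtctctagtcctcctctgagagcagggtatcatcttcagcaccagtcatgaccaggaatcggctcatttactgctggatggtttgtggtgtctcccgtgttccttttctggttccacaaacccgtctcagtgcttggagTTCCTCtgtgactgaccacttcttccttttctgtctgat
Slamf9: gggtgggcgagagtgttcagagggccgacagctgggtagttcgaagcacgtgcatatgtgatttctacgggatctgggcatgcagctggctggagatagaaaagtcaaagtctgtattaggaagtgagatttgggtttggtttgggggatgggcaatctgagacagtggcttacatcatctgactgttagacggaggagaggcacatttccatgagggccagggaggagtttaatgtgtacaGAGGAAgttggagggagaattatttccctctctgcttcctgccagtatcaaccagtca
Slamf8: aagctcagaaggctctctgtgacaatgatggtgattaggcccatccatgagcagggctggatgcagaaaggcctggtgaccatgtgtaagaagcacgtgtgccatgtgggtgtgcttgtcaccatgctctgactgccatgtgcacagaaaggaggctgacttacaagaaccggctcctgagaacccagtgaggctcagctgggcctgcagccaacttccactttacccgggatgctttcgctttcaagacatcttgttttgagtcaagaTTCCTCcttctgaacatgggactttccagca
Cd244: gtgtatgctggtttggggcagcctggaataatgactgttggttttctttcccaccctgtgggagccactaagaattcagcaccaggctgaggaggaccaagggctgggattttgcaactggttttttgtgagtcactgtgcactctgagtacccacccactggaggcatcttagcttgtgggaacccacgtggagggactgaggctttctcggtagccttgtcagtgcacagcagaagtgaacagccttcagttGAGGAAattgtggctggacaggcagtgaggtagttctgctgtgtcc

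Each of the 4 windows held GAGGAA on 1 of the strands, 1 match each, where 28.3% of all 32851 RefSeq promoter windows of this length held it on either strand. The first base of the match lay 8 bases before the start in Slamf9, and 11, 19 and 4 bases after it in Cd84, Slamf8 and Cd244. The AP-1 letters TGANTCA were in the windows of Cd84, Slamf8 and Cd244 and in 7.81% of all windows. The E-box letters CACGTG were in those of Slamf9, Slamf8 and Cd244 and in 7.15% of all. These 3 patterns were chosen after the expression values and the windows had been seen, do not overlap in these windows, and describe letters, not bound sites.

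The comparison of vehicle-treated 5xFAD with non-transgenic mice asks how the receptors differ in a brain that forms plaques. Cd84, Slamf9 and Ly9 were 4.88 to 6.41-fold higher in vehicle-treated 5xFAD mice, with every transgenic mouse above every non-transgenic one. Cd84, a receptor of macrophages, B cells and platelets that binds itself, stood at 118, 48.6, 86.9 and 66.8 normalized counts in non-transgenic mice 1 to 4. It stood at 319, 424, 585 and 296 in vehicle-treated 5xFAD mice 1 to 4. The lowest transgenic mouse thus had more than the highest non-transgenic mouse, and mouse 3 was the highest of its group. The means were 80.2 ± 29.9 and 406 ± 132 (SD, n = 4 each), a rise of 5.09-fold (log2 difference 2.35, SE 0.45, adjusted p = 0.00283 by limma).

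Slamf9, a receptor with a short tail described in mouse macrophages and dendritic cells, had the largest change of the members tested. It stood at 40.1, 30.8, 33.2 and 22.9 normalized counts in the non-transgenic mice, and at 212, 197, 300.2 and 141 in the vehicle-treated 5xFAD mice. The groups were apart, and mouse 3 was again the highest transgenic mouse. The means were 31.7 ± 7.08 and 212 ± 66.1 (SD, n = 4 each), 6.41-fold (log2 difference 2.68, SE 0.43, adjusted p = 0.00204 by limma), and ranked 10 among all 695 genes by size of the rise.

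Ly9 (CD229), best known from T and B lymphocytes, also rose. It stood at 31.4, 22.8, 28.7 and 21.9 normalized counts in the non-transgenic mice and at 93.6, 139, 181 and 123 in the vehicle-treated 5xFAD mice. The groups did not overlap, and mouse 3 was highest and mouse 1 lowest among the transgenic mice. The means were 26.2 ± 4.55 and 134 ± 36.5 (SD, n = 4 each), 4.88-fold (log2 difference 2.29, SE 0.42, adjusted p = 0.00253 by limma).

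Slamf8 and Cd244 did not pass the test or its minimum. Slamf8 (BLAME), which in mouse macrophages is known to restrain the phagocyte oxidase, stood at 22.6, 13.9, 10.8 and 18.1 normalized counts in the non-transgenic mice and at 21.8, 42.6, 38.6 and 27.9 in the vehicle-treated 5xFAD mice. Mice 2, 3 and 4 of the transgenic group lay above every non-transgenic mouse, and mouse 1 lay below the highest. The log2 difference was 0.96 with a 95% interval of 0.20 to 1.72 (adjusted p = 0.0755 by limma), 1.95-fold, and it did not pass. It did pass when values under 20 were set to 20 (adjusted p = 0.0453), when only these groups were fitted (0.0453), and without 5xFAD vehicle mouse 1 (0.0483) or 5xFAD TPPU mouse 2 (0.021). Setting values to 20 made non-transgenic mice 2, 3 and 4 equal and changed no vehicle-treated 5xFAD mouse, so it cut the non-transgenic spread. Slamf8 did not pass with arrays centred on their medians (log2 difference 0.68, adjusted p = 0.115 by limma) or with quantile normalization (0.45, adjusted p = 0.204). Whether Slamf8 changed less than the other receptors was not tested.

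Cd244 (2B4), a receptor of natural killer cells, stood at 13.4 to 14.9 normalized counts in the non-transgenic mice. It stood at 9.46, 12.2, 23.2 and 23.0 in the vehicle-treated 5xFAD mice, of which 2 lay above and 2 below all non-transgenic mice. The means of 14.4 ± 0.665 and 16.9 ± 7.16 (SD, n = 4 each) differed by less than the spread, and in a fit of all 756 genes the log2 difference was 0.13 with a 95% interval of -0.49 to 0.76 (adjusted p = 0.848 by limma).

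**Figure D1:**
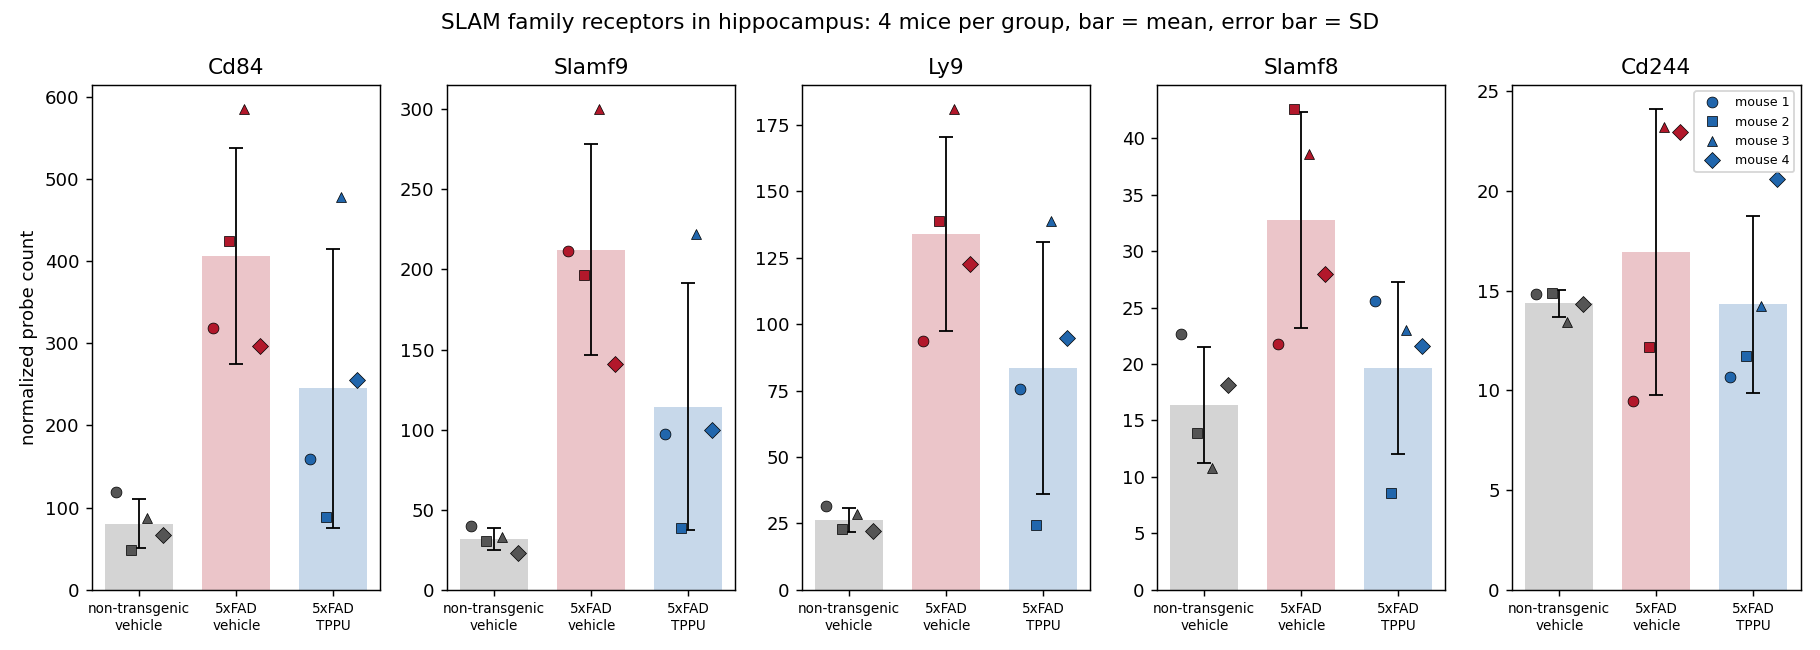
Normalized probe counts (y axes from 0, one scale per gene) of the 5 SLAM receptors in 3 groups of 4 mice; points are mice, bars means and error bars SD. Cd84, Slamf9 and Ly9 are apart between non-transgenic and vehicle-treated 5xFAD mice, the TPPU-treated mice spread across the gap, and Slamf8 and Cd244 overlap between the groups.

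Of the 5 members, 3 were called higher, Slamf8 was not, and Cd244 was not tested in that fit; over all tested genes, 18.7% were called higher and 0% lower, and the median log2 difference was 0.13. Cd84, Slamf9 and Ly9 were 3 of the genes whose lowest 5xFAD vehicle mouse exceeded the highest non-transgenic mouse, which was so for 21.6% of tested genes, while the opposite held for 0.144%. The share of higher among called genes depends on the scale: 130 were higher and 0 lower as deposited, 102 and 88 with arrays centred on their medians, and 80 and 104 after quantile normalization. Median centring lowered the median of all genes to -0.15, a shift of about 0.28 that applies to each gene. On that scale the log2 differences of Cd84, Slamf9 and Ly9 were 2.06, 2.40 and 2.00, and all stayed called (adjusted p 0.00137 to 0.00274 by limma).

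The low counts bear on the size of these folds. The non-transgenic levels of Slamf9 and Ly9, and Slamf8 and Cd244 in every group, lay close to the 15.2 to 33.5 normalized counts of Uty in the 6 mice with low Y-linked counts. Kdm5d stood at 14.2 to 22.8 in those mice, against 22.9 to 40.1 for Slamf9 and 21.9 to 31.4 for Ly9 in non-transgenic mice. Whether the authors subtracted background is not stated in the labels, and the part of background in the folds was not tested. In whole probe counts, Slamf8 ranged from 8 to 42 and Cd244 from 10 to 23, and the lowest Slamf8 count, of 5xFAD TPPU mouse 2, has an exact 95% Poisson interval of 3.45 to 15.8, which covers counting error alone.

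The proportions of Cd84, Slamf9 and Ly9 were compared within each mouse. The ratio of Ly9 to Cd84 was 0.348 ± 0.0864 in non-transgenic, 0.336 ± 0.0537 in vehicle-treated and 0.354 ± 0.0917 in TPPU-treated 5xFAD mice (SD, n = 4 each). The ratio of Slamf9 to Cd84 was 0.424 ± 0.141, 0.529 ± 0.0928 and 0.475 ± 0.0953. The ratio of Ly9 to Slamf9 was 0.837 ± 0.0957, 0.656 ± 0.181 and 0.748 ± 0.151. The ranges of all 3 ratios overlapped between all groups, and their differences were not tested. The mice that were high for one of these receptors were mostly high for the others: mouse 3 led both 5xFAD groups and mouse 1 the non-transgenic group for Cd84, Slamf9 and Ly9.

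The comparison of TPPU-treated with vehicle-treated 5xFAD mice asks whether the inhibitor changes these transcripts in transgenic animals. Each member had a lower mean with TPPU, but none passed the test and the groups overlapped for all 5. A lower level was also the general direction: 489 of all 695 tested genes had a log2 difference below 0, with a median of -0.12. In TPPU-treated mice 1 to 4, Cd84 stood at 159, 88.6, 478 and 255 normalized counts. Slamf9 stood at 96.97, 38.4, 222 and 99.9, and Ly9 at 75.7, 24.5, 139 and 94.7. Mouse 2 lay within the non-transgenic range for all 3 of these receptors, while mouse 3 lay within the vehicle-treated 5xFAD range.

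The TPPU-treated means were 245 ± 170 for Cd84, 114 ± 77.2 for Slamf9 and 83.5 ± 47.4 for Ly9 (SD, n = 4), and these spreads were larger than those of the vehicle-treated group. Slamf9 had the largest difference, a log2 value of -1.09 with a 95% interval of -2.03 to -0.16 (adjusted p = 0.217 by limma). Cd84 differed by -0.94 (interval -1.93 to 0.05, adjusted p = 0.288) and Ly9 by -0.88 (interval -1.80 to 0.05, adjusted p = 0.29). Slamf8 stood at 25.6, 8.54, 23.0 and 21.6 normalized counts with TPPU, a log2 difference of -0.76 (interval -1.52 to -0.01, adjusted p = 0.27). With arrays centred on their medians these differences were smaller and none was called. They were then -0.89 for Slamf9, -0.74 for Cd84, -0.68 for Ly9 and -0.56 for Slamf8. As ratios of TPPU to vehicle, the intervals were 0.263 to 1.04 for Cd84, 0.245 to 0.896 for Slamf9, 0.286 to 1.04 for Ly9 and 0.349 to 0.996 for Slamf8, so a missed threshold does not show that TPPU left them unchanged.

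Cd244 stood at 10.7, 11.7, 14.2 and 20.6 normalized counts with TPPU. In the fit of all genes its log2 difference from vehicle was -0.18 (interval -0.80 to 0.45, adjusted p = 0.791). Limma called 0% of the 695 genes in either direction in this comparison, and limma with voom weights on the whole counts also called 0. At an unadjusted p under 0.05, 119 genes (17.1%) were lower and 7 (1.01%) higher, and Slamf8 and Slamf9 were among the lower. All TPPU-treated mice lay below all vehicle-treated ones in 4.32% of genes and above them in 0.576%, no SLAM receptor among either. The result rests on single mice: without 5xFAD TPPU mouse 3, Slamf9 was called lower (log2 difference -1.50, adjusted p = 0.0377 by limma) as 1 of 39 genes called lower, and without 5xFAD TPPU mouse 2 the differences of Cd84, Slamf9 and Ly9 were -0.54, -0.66 and -0.38.

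TPPU-treated 5xFAD mice were also set against non-transgenic mice, which share neither genotype nor treatment. Mice 1, 3 and 4 lay above all non-transgenic mice for Cd84, Slamf9 and Ly9, and mouse 2 did not. The log2 differences were 1.41 (SE 0.45) for Cd84, 1.59 (SE 0.43) for Slamf9 and 1.41 (SE 0.42) for Ly9. None passed (adjusted p = 0.175, 0.167 and 0.175 by limma), and 0% of the 695 genes were called, with 95 higher (13.7%) and 7 lower (1.01%) at an unadjusted p under 0.05 and 0 calls with voom weights. All TPPU-treated mice lay above all non-transgenic mice in 6.19% of genes and below them in 0.863%, no SLAM receptor among either. Without 5xFAD TPPU mouse 2 all 3 were called higher (adjusted p 0.00182 to 0.0156), with log2 differences of 1.81 for Cd84, 2.02 for Slamf9 and 1.91 for Ly9, and 59 genes were called higher and 1 lower in all. Slamf8 differed by 0.20 (interval -0.56 to 0.96, adjusted p = 0.868). The order of the group means was therefore non-transgenic, TPPU-treated and vehicle-treated 5xFAD for Cd84, Slamf9, Ly9 and Slamf8, and the TPPU-treated group overlapped with both neighbours in that order. All 3 comparisons share groups, so their values are not independent of each other.

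In a tissue extract, fewer cells of a type and less RNA per cell cannot be told apart. The receptors were therefore also set against genes listed as microglial markers, whose specificity to microglia in this tissue was not tested. The 9 tested microglial identity genes were Tmem119, P2ry12, Cx3cr1, Csf1r, Gpr34, Sall1, Olfml3, Itgam and Ptprc. In vehicle-treated 5xFAD against non-transgenic mice 8 of them were called higher by limma and Sall1 was not, where 18.7% of all tested genes were called higher. The mean log2 level of the 9 genes was 8.70 ± 0.14 in non-transgenic, 9.94 ± 0.32 in vehicle-treated and 9.37 ± 0.45 in TPPU-treated 5xFAD mice (SD, n = 4 each). Among TPPU-treated mice it was lowest in mouse 2 (8.84) and highest in mouse 3 (9.93), the mice with the lowest and the highest Cd84, Slamf9 and Ly9. The list summed to between 4579 and 5394 normalized counts in non-transgenic mice, between 9250 and 15048 on vehicle and between 5462 and 11338 on TPPU, and none of its genes was at 0 in every mouse. The part of microglial number in the receptor levels was not tested.

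With that mean taken from each array, a value above 0 says that the receptor's log2 difference lay above the average of the microglial identity genes, and a value below 0 that it lay below it. The reference genes themselves differed in this genotype comparison, from 0.43 log2 for Sall1 to 1.93 for Ptprc, with a median of 1.41. The size of a relative difference thus depends on which of them are used. Relative to their average, Cd84, Slamf9 and Ly9 were still higher in vehicle-treated 5xFAD than in non-transgenic mice. The relative log2 difference was 1.44 (SE 0.29, adjusted p = 0.000507 by limma) for Slamf9, 1.11 (SE 0.28, adjusted p = 0.00204) for Cd84 and 1.05 (SE 0.28, adjusted p = 0.00275) for Ly9. On this scale 5.18% of the 695 genes were called higher and 76.7% lower. Slamf9 minus the microglial mean was -4.20 to -3.46 log2 in non-transgenic mice and -2.58 to -1.89 in 5xFAD mice on vehicle. How many of all genes had groups apart on this scale was not counted. These 3 calls held in each of the 12 fits that left out 1 mouse. For Slamf8 the relative difference was -0.28 (interval -0.88 to 0.33, adjusted p = 0.368).

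Between TPPU-treated and vehicle-treated 5xFAD mice the relative differences were smaller than on the deposited scale. They were -0.37 for Cd84, -0.53 for Slamf9, -0.31 for Ly9 and -0.20 for Slamf8, and none was called (adjusted p 0.172 to 0.58 by limma, with 0% of genes called higher and 0.144% lower). Slamf9 was called lower without 5xFAD TPPU mouse 3 (-0.74, adjusted p = 0.0353), and the Ly9 difference was 0.0064 without 5xFAD TPPU mouse 2. Against non-transgenic mice, TPPU-treated mice had relative log2 differences of 0.74 for Cd84, 0.91 for Slamf9 and 0.74 for Ly9, called at adjusted p 0.0365 to 0.0464, where 2.45% of genes were called higher and 44.5% lower. Those calls were close to the threshold: they ended without 7 of the 12 mice in turn for Slamf9, without 8 for Ly9 and without 9 for Cd84.

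**Figure D2:**
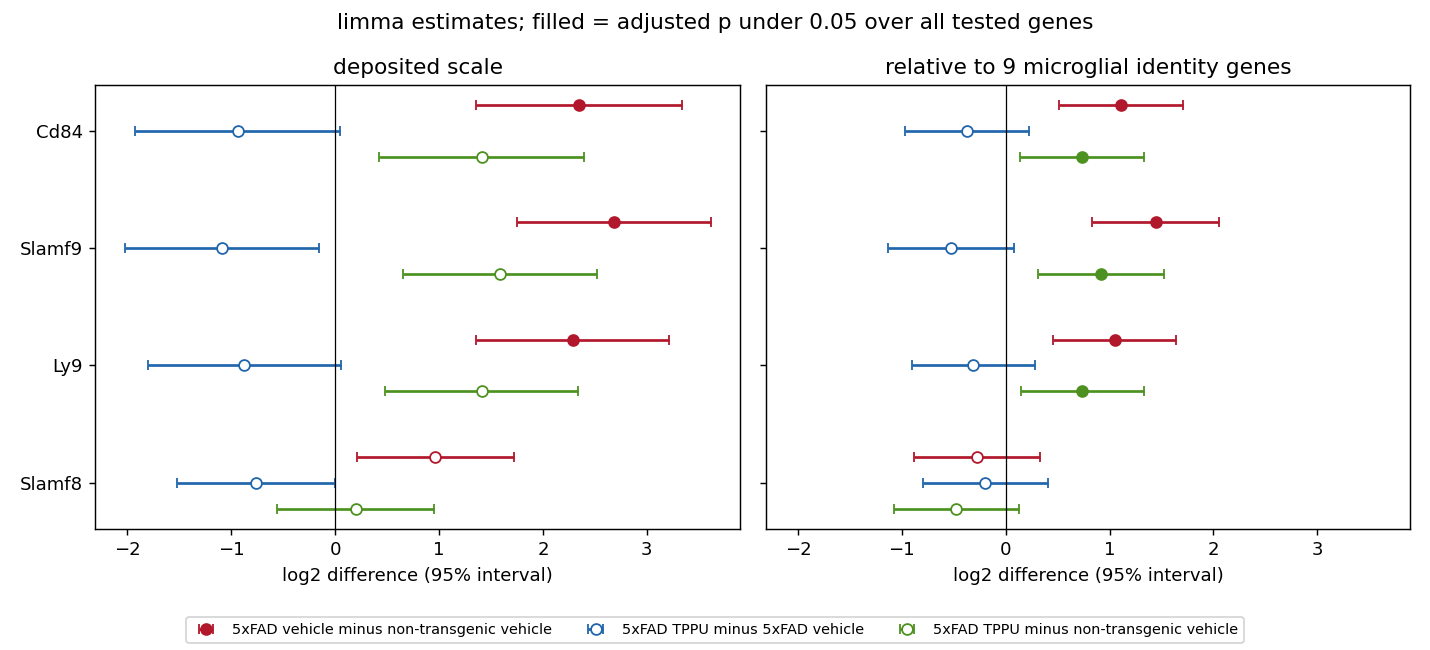
Log2 differences (x axis, with 95% intervals) of the 4 tested SLAM receptors in 3 comparisons, on the deposited scale (left) and relative to the mean of 9 microglial identity genes (right); filled points passed an adjusted p of 0.05 by limma. The genotype differences of Cd84, Slamf9 and Ly9 are 2.35, 2.68 and 2.29 on the left and 1.11, 1.44 and 1.05 on the right, and no TPPU difference from vehicle is filled.

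**Figure D3:**
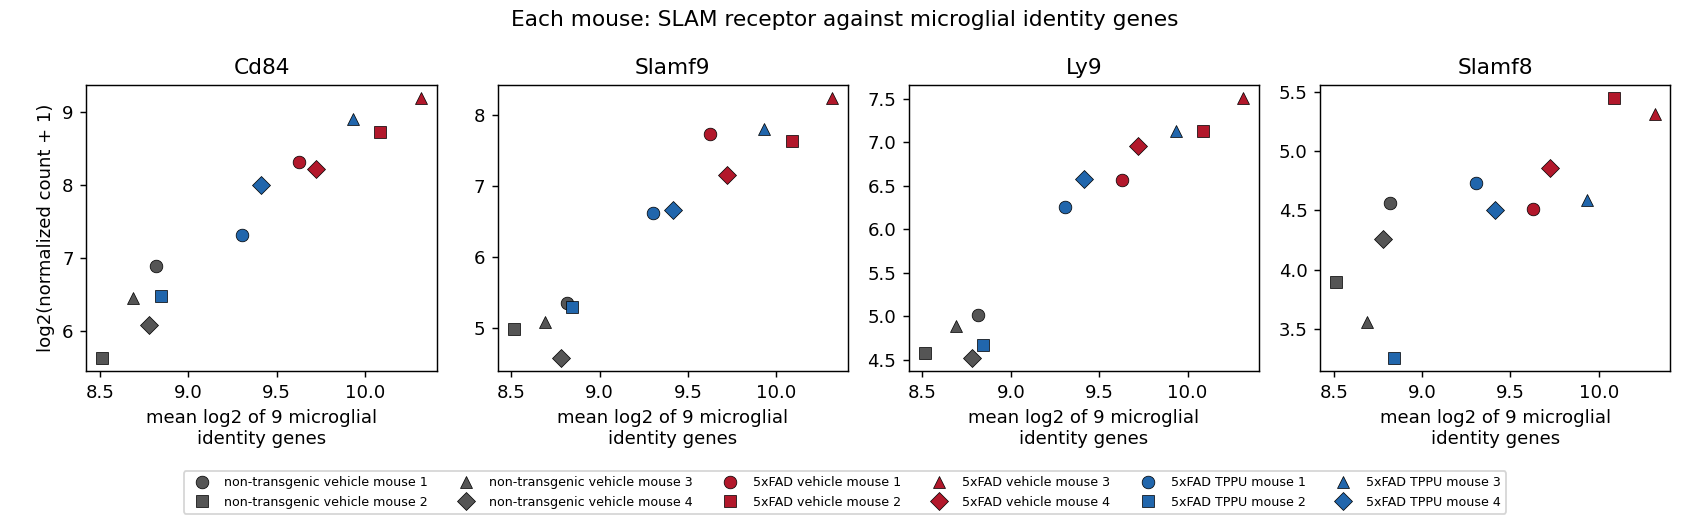
Log2 of the normalized count plus 1 of each tested receptor (y axes, one scale per gene) against the mean log2 of 9 microglial identity genes (x axes) in 12 mice, coloured by group with 1 symbol per mouse number. On the y axes TPPU-treated mouse 2 lies within the non-transgenic range for Cd84, Slamf9 and Ly9 and mouse 3 within the vehicle-treated 5xFAD range; on the x axis mouse 2 (8.84) lies just above the highest non-transgenic mouse (8.82).

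Ly9 and Cd244 are also known from lymphocytes and natural killer cells, so markers of those cells were read in the same mice. Of the T cell list 7 genes were analysed, 2 of them tested, and its summed level overlapped between the groups at 114 to 130, 101 to 145 and 106 to 150.3 normalized counts in non-transgenic, vehicle-treated and TPPU-treated mice. The B cell list (5 genes, 1 tested) summed to 133 to 173, 90.8 to 206 and 125 to 158, and the list of natural killer and cytotoxic genes (10 genes, 4 tested) to 149 to 179, 149 to 216 and 161 to 193. No gene of these lists was at 0 in every mouse, and none of the tested ones was called in any comparison. The untested genes had means under 20, such as 14.4 for Cd3e, 6.42 for Ms4a1 and 10.4 for Ncr1. At such low counts, overlapping sums cannot show whether these cells changed in number. The tested T cell genes were Cd3g, with means of 17.1 ± 0.941, 22.1 ± 5.47 and 21.8 ± 4.53 normalized counts in the non-transgenic, vehicle and TPPU groups, and Cd6, with 36.6 ± 5.15, 28.7 ± 6.87 and 43.2 ± 11.6 (SD, n = 4 each).

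Blood monocytes and neutrophils were followed with 7 genes, 4 of them tested, whose summed level was 939 to 1382, 1281 to 2600 and 1447 to 1751 normalized counts in the 3 groups. Csf3r, the receptor for granulocyte colony-stimulating factor, was called higher in vehicle-treated 5xFAD mice (3.17-fold, adjusted p = 0.0395 by limma), and microglia are also known to express it. Of border macrophage markers only Cd163 was analysed, with means of 46.7 ± 15.8 and 69.1 ± 33.4 for the non-transgenic and 5xFAD vehicle mice, and it was not called. The part of these cells in the receptor levels was not tested.

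Among genes that act downstream of SLAM receptors, 8 of the 9 analysed were tested, and 5 were called higher and 0 lower in vehicle-treated 5xFAD mice, where 18.7% of all tested genes were called higher. The list median was 1.13 log2, against 0.13 for all tested genes. Ptpn6, the phosphatase SHP-1, rose 3.26-fold, from 74.7 ± 10.8 to 252 ± 78.0 normalized counts (SD, n = 4 each). Vav1, an exchange factor of immune receptor signalling, rose 2.41-fold and Plcg2, a phospholipase of the same pathways, 2.26-fold. The kinase Lyn and the phosphatase Inpp5d were the others called. Fyn, named outside the rule for its place in the pathway, stood at 3336 ± 127 and 3385 ± 307 (log2 difference 0.02, adjusted p = 0.905 by limma). Sh2d1a, the adaptor itself, was under the minimum, with means of 16.4 ± 1.94, 18.1 ± 4.40 and 14.6 ± 4.10 normalized counts in the non-transgenic, vehicle and TPPU groups. Between TPPU-treated and vehicle-treated mice 0 of the 8 were called by limma and 0 with voom weights. At an unadjusted p under 0.05, 5 were lower and 0 higher, where 17.1% of all tested genes were lower and 1.01% higher.

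SLAM receptors have been linked to phagosomes through the Beclin complex and the phagocyte oxidase, and 3 genes of that list were analysed. Ncf1, an organiser subunit of the oxidase, rose 3.06-fold, from 96.1 ± 12.5 to 298 ± 54.8 normalized counts (SD, n = 4 each), and Rac2, its GTPase, 1.45-fold, from 31.9 ± 0.798 to 47.0 ± 3.64 (adjusted p = 0.00221 and 0.0238 by limma). Becn1, at 3978 ± 174 and 3853 ± 343, did not pass (adjusted p = 0.788). Under TPPU none of the 3 was called against vehicle.

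The genes most like each receptor were taken as those with the smallest root mean square difference between log2 profiles centred on their own mean over the 12 mice. For Cd84 they were Fcer1g, the shared signalling chain of Fc receptors (0.21 log2), the lysosomal protease Ctss (0.21) and the complement gene C4a (0.24), where the median gene was at 1.12. For Slamf9 they were the complement receptor C3ar1 (0.24), Ctss (0.29) and the inhibitory Fc receptor Fcgr2b (0.30), with the median gene at 1.21. For Ly9 they were the C1q subunit C1qa, Ctss and C3ar1, at 0.17, 0.17 and 0.19, with the median gene at 1.07. Ly9 was the fifth closest gene to both Cd84 and Slamf9. For Slamf8 they were the G protein subunit Gna15 (0.25), the transcription factor Nfe2l2 (0.32) and Lyn (0.33), where the median gene was at 0.61 and the other receptors were farther than that, at 0.70 to 0.88. Seen from Ly9, Cd84 and Slamf9, Slamf8 ranked 80, 91 and 95 by closeness, nearer than their median genes. This distance depends on the size of a gene's changes as well as on their pattern over the mice.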

How the data were processed

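Hippocampal RNA of 12 mice was measured. Per the labels' protocols, the authors normalized probe counts with the geometric mean of 10 housekeeping genes, none of which was analysed here. The deposited values are signal on a linear scale, called normalized counts. Each is a whole multiple of 1 factor per mouse (100% within 0.01), taken as whole counts. The labels name neither the software nor any background subtraction. Of the gene symbols, 749 matched RefSeq (GRCm38.p6) and 7 matched as synonyms.

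Log2 of the value plus 1 was fitted for 695 genes with a mean of at least 20 in 1 model of the 3 groups (limma 3.58.1, R 4.3.3, trended prior, 9 residual degrees of freedom). A gene was called where its p, adjusted over all tested genes by Benjamini-Hochberg, was under 0.05. A second fit first took the mean of the microglial identity genes from each array. The members and lists were chosen with earlier results of these data known. Of the signalling and phagosome lists, up to 3 called genes with the largest genotype change are named; of the marker lists, summed levels and the genes needed to read them are given. The procedure was tested on simulated data. Pseudocount, filter, floor, scaling, variance model, mouse number, Y-linked status and mice left out were varied. Figures used matplotlib 3.10.9 in Python 3.11.15.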

Additional observations from a re-analysis of the deposited data

How the results depend on the processing

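The genotype calls of Cd84, Slamf9 and Ly9 held in all 16 other settings and in all 12 fits without 1 mouse, with log2 differences from 1.63 (Ly9, quantile normalization) to 2.86 (Slamf9, without 1 mouse). Slamf8 was called with values under 20 set to 20 (0.59) and with only the groups compared (0.96), and ranged from 0.79 to 1.13 without 1 mouse and from 0.45 (quantile normalization) to 1.20 (without the mice with high Ttr) over the other settings. Against non-transgenic mice, TPPU-treated mice had calls with array weights for Ly9 (1.37) and Slamf9 (1.47). Without 1 mouse these differences ranged from 1.09 to 1.91 for Ly9, from 1.18 to 2.02 for Slamf9 and from 1.00 to 1.81 for Cd84. The Slamf9 difference between TPPU and vehicle ranged from -1.50 to -0.66. Relative to microglial identity genes without Csf1r and Ptprc, the TPPU calls against non-transgenic mice ended for Cd84 (0.80) and Ly9 (0.81). Without 1 mouse these ranged from 0.51 to 0.96 for Cd84, 0.60 to 1.06 for Ly9 and 0.70 to 1.17 for Slamf9. The relative differences from vehicle ranged from -0.74 to -0.27 for Slamf9 and from -0.45 to 0.0064 for Ly9. The cause of these changes was not tested. Array weights called 1 gene higher and 43 lower between TPPU and vehicle, and 52 higher and 3 lower between TPPU-treated and non-transgenic mice, against 0 in each. Mouse numbers were not taken to pair the samples, since only 6 of 12 same-numbered pairs had deviations correlated over 0.1 (from -0.37 to 0.39), though 10 of 24 comparisons were best with the own number, so a shared effect of the number is not excluded. The mouse number as a replicate block gave 125 genotype calls against 130 and changed no call of a SLAM receptor (Slamf8 adjusted p = 0.128 by limma). The planned edgeR test on the whole counts was not run. Voom weights on those counts and scaling to the mouse's total count were added after seeing the data and changed no call of a SLAM receptor. Counts under about 30 limit Slamf8 and Cd244.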

Other observations

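Kcnj10, a potassium channel of astrocytes, was the only other analysed gene among the 28 protein-coding genes from Cd244a to Slamf8 on chromosome 1, and is named for that place. Its means were 1946 ± 319, 2269 ± 705 and 2067 ± 499 normalized counts in the non-transgenic, 5xFAD vehicle and 5xFAD TPPU groups (SD, n = 4 each). The groups overlapped, and its genotype log2 difference was 0.18 with a 95% interval of -0.30 to 0.66 (adjusted p = 0.647 by limma).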
